A study of Mus musculus with 8 samples.

Results

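The genes that encode the ligands of the EGFR receptor family were followed in ASZ001, a cultured mouse basal cell carcinoma line. The 10 genes Tgfa, Areg, Egf, Epgn, Hbegf, Ereg, Btc, Nrg1, Nrg2 and Nrg4 were taken by symbol from the 24883 symbols of the deposited count table, and all 10 were present. They were defined by name as a gene family and by no measured value, although the list was drawn up with earlier results of these data known.

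Ligands of this family are made as membrane-anchored precursors and are released by cell-surface proteases. They bind EGFR, ERBB3 or ERBB4, which pair with each other or with ERBB2 and signal through RAS, RAF, MEK and ERK. In epidermis, keratinocytes make several of these ligands themselves and respond to them, an autocrine loop known for its roles in growth, migration and wound repair. TGF-alpha, amphiregulin, EGF and epigen bind EGFR. HB-EGF, epiregulin and betacellulin bind EGFR and ERBB4. Neuregulin-1 and neuregulin-2 bind ERBB3 and ERBB4, and neuregulin-4 binds ERBB4.

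All cells carried a doxycycline-inducible vector and received doxycycline for 24 h. Cells whose vector held c-FOS were also given afatinib at 5 µM, UO126 at 10 µM or the vehicle DMSO for 6 h. The c-FOS protein pairs with JUN proteins in AP-1 transcription factors. Cells with an empty vector carried a label of doxycycline alone. That label names no vehicle, so c-FOS and the vehicle step cannot be told apart against the empty vector. Afatinib blocks the kinases of the EGFR family and UO126 blocks MEK1 and MEK2, the kinases that activate ERK. Each of the 4 groups held 2 libraries, all from 1 cell line, and no label says whether the 2 were grown apart. The p-values therefore cover only the variation between libraries, which may be technical.

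Total counts per library lay between 17901974 and 23126048. Fos stood at 18209 to 23573.5 counts in the 6 c-Fos libraries, against 937.5 and 1040.5 in the empty-vector libraries. Fos was lower with UO126 than with DMSO (log2 fold change -0.44 ± 0.080, edgeR adjusted p = 0.0015) and was not called with afatinib (-0.06). All 7 basal keratinocyte markers were tested, with Krt5 at 146876.5 or more counts in every library. With c-Fos and DMSO against the empty vector, 4 of the 7 were called higher and 1 lower, against 21.5% and 20.7% of all tested genes. Trp63 averaged 170 ± 1.6 CPM with DMSO against 286 ± 7.0 in the empty vector, and Itga6 649 ± 23 against 244 ± 18. Against DMSO, 0 were called higher and 3 lower with afatinib (21.2% and 21.5% of all tested genes). With UO126, 1 was called higher and 3 lower (13.9% and 14.7%). Of 5 Hedgehog output markers 3 were tested. Of these 3, 2 were called lower with c-Fos and DMSO than with the empty vector, against 20.7% of all tested genes. Under each inhibitor 2 were called higher than with DMSO, against 21.2% of all tested genes with afatinib and 13.9% with UO126. The 3 genes did not run alike over the groups. Gli1 averaged 13.9 ± 0.69 CPM (counts scaled by library total) with afatinib, 10.8 ± 0.87 with UO126, 7.52 ± 0.013 with DMSO and 13.1 ± 0.82 in the empty vector (SD, n = 2 each). The 6 fibroblast markers summed to 7.04 to 7.13 CPM with afatinib, 9.18 to 10.6 with UO126, 8.16 to 9.03 with DMSO and 4.78 to 5.07 in the empty vector. The 4 leukocyte markers summed to 8.53 to 8.91 CPM with afatinib, 7.86 to 9.32 with UO126, 6.11 to 6.75 with DMSO and 5.41 to 6.08 in the empty vector. The 4 endothelial markers, nearly all of it Pecam1, summed to 58.1 to 59.3 CPM with afatinib, 61.3 to 62.5 with UO126, 55.7 to 59.8 with DMSO and 68.8 to 71.8 in the empty vector. The 4 melanocyte markers, mostly Pmel, summed to 8.43 to 8.62 CPM with afatinib, 10.5 to 11.4 with UO126, 8.90 to 10.2 with DMSO and 6.90 to 8.33 in the empty vector. Lum and Thy1 of fibroblasts, Tyrobp of leukocytes, Kdr of endothelium and Tyr of melanocytes were at 0 in all 8 libraries. Within the lists markers moved in opposite directions: with DMSO against the empty vector, Col1a2 averaged 6.41 ± 1.1 against 0.845 ± 0.25 CPM and Dcn 0.745 ± 0.37 against 2.55 ± 0.061 CPM. Csf1r averaged 3.70 ± 0.24 CPM with afatinib, 3.44 ± 0.58 with UO126, 1.52 ± 0.66 with DMSO and 0.174 ± 0.063 in the empty vector. Their part in the ligand levels was not tested.

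Epgn, Ereg, Areg and Btc are 4 consecutive protein-coding genes on mouse chromosome 5 in the RefSeq annotation of GRCm38.p6. Promoter sequences of RefSeq on that build, 250 bases before to 50 after a start site, were matched by symbol for 6 of the 10 genes, Tgfa, Areg, Btc, Epgn, Egf and Nrg4, the others being Hbegf, Ereg, Nrg1 and Nrg2. They are shown for the ligand with the largest rise after c-Fos, Areg, for a gene of the same run with a small one, Epgn, and for Tgfa. Capitals mark 2 motifs searched on both strands, TGACGTCA, the palindromic cyclic AMP response element bound by CREB and ATF proteins, and AGGAAG, a core of ETS factors such as Etv4 and Etv5, seen here as CTTCCT from the other strand.

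Areg, GRCm38.p6 chr5:91139349-91139648, plus strand: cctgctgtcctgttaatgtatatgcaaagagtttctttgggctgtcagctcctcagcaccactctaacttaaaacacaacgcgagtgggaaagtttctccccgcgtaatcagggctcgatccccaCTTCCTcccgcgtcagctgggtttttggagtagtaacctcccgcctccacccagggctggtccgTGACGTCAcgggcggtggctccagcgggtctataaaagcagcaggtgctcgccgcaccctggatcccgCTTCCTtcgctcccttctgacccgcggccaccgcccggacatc

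Epgn, GRCm38.p6 chr5:91027267-91027566, plus strand: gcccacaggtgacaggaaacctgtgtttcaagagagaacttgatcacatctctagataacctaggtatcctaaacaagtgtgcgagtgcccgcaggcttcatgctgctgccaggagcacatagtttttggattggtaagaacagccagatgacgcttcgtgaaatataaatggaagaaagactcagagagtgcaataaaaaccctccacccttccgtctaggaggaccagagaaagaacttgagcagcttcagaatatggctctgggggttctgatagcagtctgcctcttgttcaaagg

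Tgfa, GRCm38.p6 chr6:86194972-86195271, plus strand: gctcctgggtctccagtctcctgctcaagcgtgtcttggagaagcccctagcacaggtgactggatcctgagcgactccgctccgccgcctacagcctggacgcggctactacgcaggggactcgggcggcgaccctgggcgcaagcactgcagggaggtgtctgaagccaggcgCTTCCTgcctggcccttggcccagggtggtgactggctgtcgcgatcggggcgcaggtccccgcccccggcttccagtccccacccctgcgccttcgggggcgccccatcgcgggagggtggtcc

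The Areg window held TGACGTCA once, with its first base 61 bases before the start site (position -61), and 1.79% of the 32851 promoters in the table held it. AGGAAG began at positions -125 and 7 of the Areg window at -75 of the Tgfa window and at -128 of an Egf window, while 35.4% of all promoters held it. The Epgn window held neither. The AP-1 motif TGANTCA was in none of the 7 windows of these 6 genes, and 7.81% of all promoters held it. These matches describe letters in short windows of another genome build than the mm9 of the counts, and no binding was measured.

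Most ligand genes were higher after induction of c-Fos. In bulk RNA, fewer cells of a kind and less RNA per cell cannot be told apart. With 1 entry per gene symbol, the isoforms of Nrg1 and the other members cannot be separated. Levels are given as CPM and changes as log2 fold changes ± SE, and a gene is called where the edgeR quasi-likelihood test gave a Benjamini-Hochberg adjusted p under 0.05 over the 12879 genes tested. In c-Fos cells with DMSO, 8 of the 10 ligand genes were called higher and 1 lower than in empty-vector cells, against 21.5% and 20.7% of all tested genes and 42.2% in either direction. The median change of the 10 was 1.13, beside -0.01 over all tested genes.

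Areg, which encodes amphiregulin, had the largest change of the 10. It stood at 6.94 and 9.03 CPM in the c-Fos libraries with DMSO, against 0.411 and 0.947 CPM in the empty-vector libraries, which is 3.53 ± 0.27 on the log2 scale (adjusted p = 2.3e-07). The empty-vector level rested on 9.5 and 19.5 counts, and the change was 3.04 without empty-vector replicate 1 and 4.19 without replicate 2. Both DMSO libraries lay far above both empty-vector libraries.

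Tgfa had 52.3 and 54.5 CPM with c-Fos and DMSO, against 17.1 and 15.7 CPM in the empty vector (1.70 ± 0.083, adjusted p = 3.0e-09). Epgn, which encodes epigen, had 34.0 and 36.1 CPM with c-Fos and DMSO, against 22.5 and 22.5 CPM in the empty vector (0.64 ± 0.097, adjusted p = 1.5e-04). It was called with a smaller change than Ereg and Areg of the same run of genes. Egf, the founding ligand of the family, went the other way from a level near the filter on low counts, with 12.5 and 5.5 counts in the DMSO libraries, against 26 and 24.5 counts in the empty-vector libraries. Its change of -1.18 ± 0.40 was called at an adjusted p of 0.028, and the call ended without either empty-vector replicate (adjusted p = 0.093 without replicate 1 and 0.085 without replicate 2), without DMSO replicate 2 (0.22) and with the DESeq2 Wald test (0.14). In 6 of the 8 libraries, 1 of them with DMSO and 1 with afatinib, Egf reached the level that the filter asked of 2.

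The ligands that bind both EGFR and ERBB4 also rose. Hbegf, whose precursor is also the diphtheria toxin receptor in humans, had 69.3 and 79.8 CPM with c-Fos and DMSO, against 30.0 and 31.8 CPM in the empty vector (1.27 ± 0.083, adjusted p = 4.9e-08). Ereg, which encodes epiregulin, had 16.1 and 15.4 CPM with c-Fos and DMSO, against 4.74 and 4.51 CPM in the empty vector (1.76 ± 0.14, adjusted p = 2.6e-07). For neither gene did the libraries of the 2 groups overlap. Btc, the betacellulin gene, was sparse at 52.5 and 39 counts with c-Fos and DMSO, against 36.5 and 22 counts in the empty vector. Its change of 0.93 ± 0.29 was called at an adjusted p of 0.020, and not without empty-vector replicate 2 (adjusted p = 0.14), without DMSO replicate 1 (0.16) or with the DESeq2 Wald test (0.066).

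Among the neuregulins, Nrg1 had 48.6 and 43.8 CPM with c-Fos and DMSO, against 24.8 and 21.8 CPM in the empty vector (0.99 ± 0.095, adjusted p = 2.4e-06). Nrg2 had 23.3 and 21.4 CPM with c-Fos and DMSO, against 6.64 and 6.48 CPM in the empty vector (1.76 ± 0.14, adjusted p = 5.0e-07). Nrg4 was not called, with 2.59 and 2.53 CPM with c-Fos and DMSO, against 2.29 and 2.74 CPM in the empty vector (0.03 ± 0.22, adjusted p = 0.92). Thus 2 of 3 neuregulin genes rose and the libraries of the third overlapped.

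**Figure D1:**
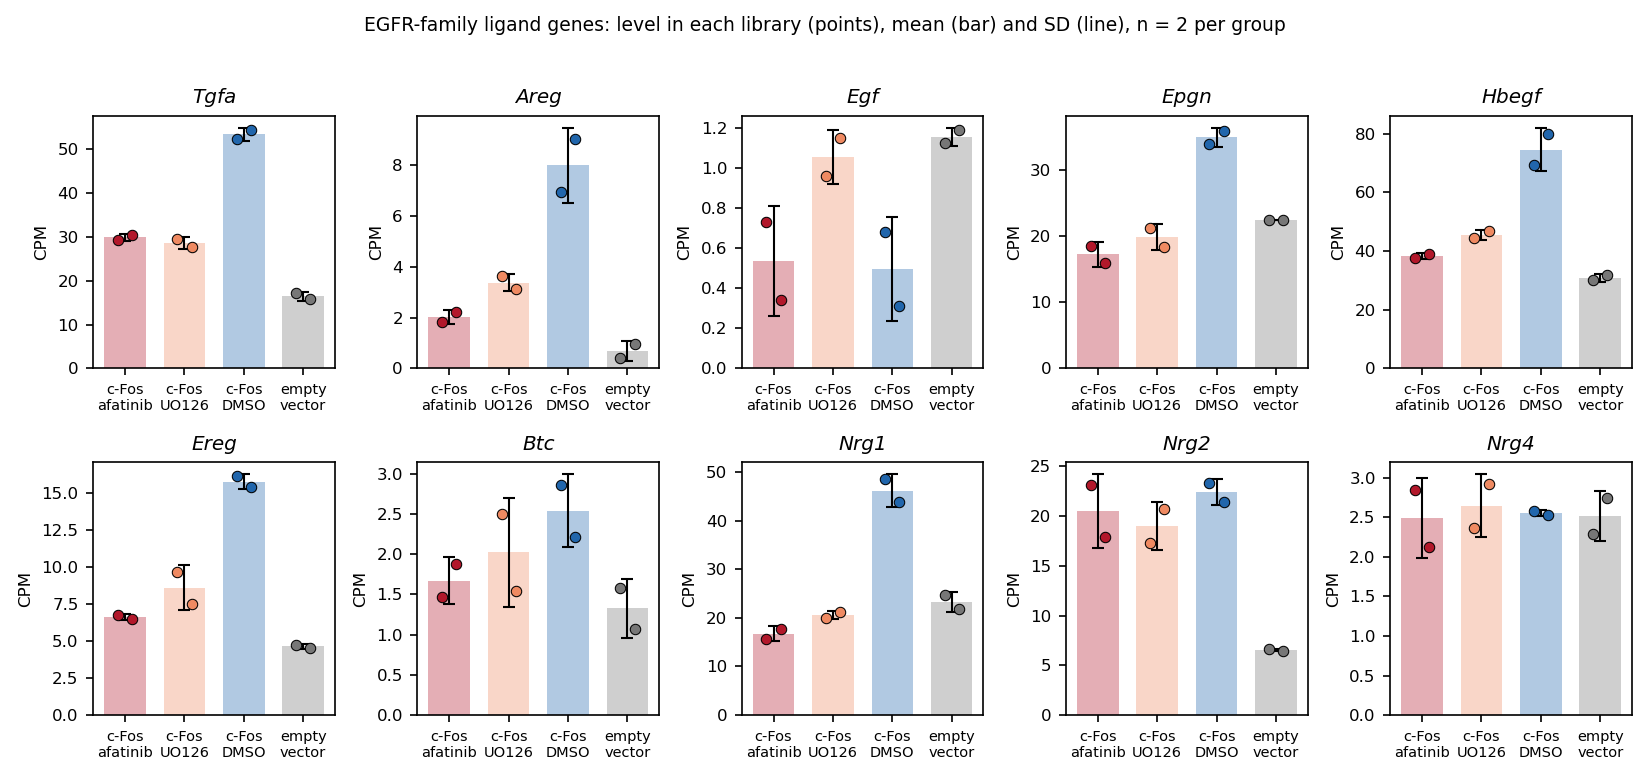
Level of each ligand gene in CPM, a panel per gene with its own linear axis from 0, in c-Fos cells with afatinib, UO126 or DMSO and in empty-vector cells; points are libraries, bars means and lines SD (n = 2 per group). Tgfa, Areg, Epgn, Hbegf, Ereg and Nrg1 are highest in both DMSO libraries, Nrg2 is at 17.3 CPM or more in all 6 c-Fos libraries and at most 6.64 CPM in the empty vector, and Nrg4 lies between 2.13 and 2.93 CPM throughout.

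Treatment with afatinib for 6 h went with lower levels of most of the ligand genes that were higher after c-Fos. With afatinib against DMSO in c-Fos cells, Areg, Nrg1, Ereg, Epgn, Hbegf and Tgfa were called lower and none higher, against 21.5% lower, 21.2% higher and 42.7% in either direction of all tested genes. The median change of the 10 was -0.89, beside 0.00 over all tested genes. These falls and the rises after c-Fos share the 2 DMSO libraries.

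Areg fell to 1.83 and 2.20 CPM with afatinib, against 6.94 and 9.03 CPM with DMSO (-1.97 ± 0.22, adjusted p = 1.1e-05), and its afatinib mean was 25.2% of the DMSO mean. Nrg1 stood at 15.7 and 17.8 CPM with afatinib, against 48.6 and 43.8 CPM with DMSO (-1.46 ± 0.099, adjusted p = 1.2e-07), at 36.2% of the DMSO mean. Ereg stood at 6.77 and 6.46 CPM with afatinib, against 16.1 and 15.4 CPM with DMSO (-1.25 ± 0.13, adjusted p = 5.6e-06). For each of these 3 genes both afatinib libraries lay below both DMSO libraries.

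Epgn had 18.6 and 16.0 CPM with afatinib, against 34.0 and 36.1 CPM with DMSO (-1.02 ± 0.10, adjusted p = 3.3e-06). Hbegf had 37.6 and 39.1 CPM with afatinib, against 69.3 and 79.8 CPM with DMSO (-0.96 ± 0.081, adjusted p = 9.4e-07). Tgfa had the smallest of the called falls, with 29.4 and 30.5 CPM with afatinib, against 52.3 and 54.5 CPM with DMSO (-0.83 ± 0.079, adjusted p = 2.5e-06). The 4 genes not called were Btc, Egf, Nrg2 and Nrg4. Nrg2, which was higher after c-Fos, had 23.1 and 17.9 CPM with afatinib, against 23.3 and 21.4 CPM with DMSO (-0.13 ± 0.12, adjusted p = 0.42), and its libraries overlapped. Btc had 30 and 41 counts with afatinib, against 52.5 and 39 counts with DMSO (-0.59 ± 0.28, adjusted p = 0.11). It passed with no low-count filter (adjusted p = 0.047) and with only the 4 libraries compared (0.046).

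The MEK inhibitor UO126 also went with lower ligand levels. Against DMSO, Areg, Nrg1, Tgfa, Ereg, Epgn and Hbegf were called lower and none higher, against 14.7% lower, 13.9% higher and 28.6% in either direction of all tested genes, with a median change of -0.76 for the 10 beside 0.00 over all tested genes. Both inhibitor comparisons use the same DMSO libraries, so their common members are not 2 separate observations. Fos itself was lower in the UO126 libraries, as given above, and its part in these falls was not tested.

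Areg had 3.62 and 3.14 CPM with UO126, against 6.94 and 9.03 CPM with DMSO (-1.24 ± 0.20, adjusted p = 5.3e-04). Nrg1 had 20.0 and 21.2 CPM with UO126, against 48.6 and 43.8 CPM with DMSO (-1.17 ± 0.096, adjusted p = 1.8e-06). Tgfa had 29.6 and 27.7 CPM with UO126, against 52.3 and 54.5 CPM with DMSO (-0.90 ± 0.079, adjusted p = 3.2e-06). No library of these 3 genes with UO126 reached the lower of the DMSO libraries.

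Ereg had 9.69 and 7.52 CPM with UO126, against 16.1 and 15.4 CPM with DMSO (-0.87 ± 0.12, adjusted p = 2.0e-04). Epgn had 21.2 and 18.5 CPM with UO126, against 34.0 and 36.1 CPM with DMSO (-0.82 ± 0.098, adjusted p = 4.9e-05). Hbegf had 44.3 and 46.7 CPM with UO126, against 69.3 and 79.8 CPM with DMSO (-0.71 ± 0.080, adjusted p = 3.0e-05). These 3 changes were all under 2-fold, the least being that of Hbegf. Egf had 21.5 and 25 counts with UO126, against 12.5 and 5.5 counts with DMSO, a positive change of 1.08 ± 0.40 that missed the threshold (adjusted p = 0.059) and passed with no low-count filter (0.034). Nrg2 had 17.3 and 20.7 CPM with UO126, against 23.3 and 21.4 CPM with DMSO (-0.24 ± 0.12, adjusted p = 0.17), and was called lower without UO126 replicate 2 (adjusted p = 0.036). Nrg4 and Btc were not called (0.05 ± 0.22 and -0.31 ± 0.27).

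**Figure D2:**
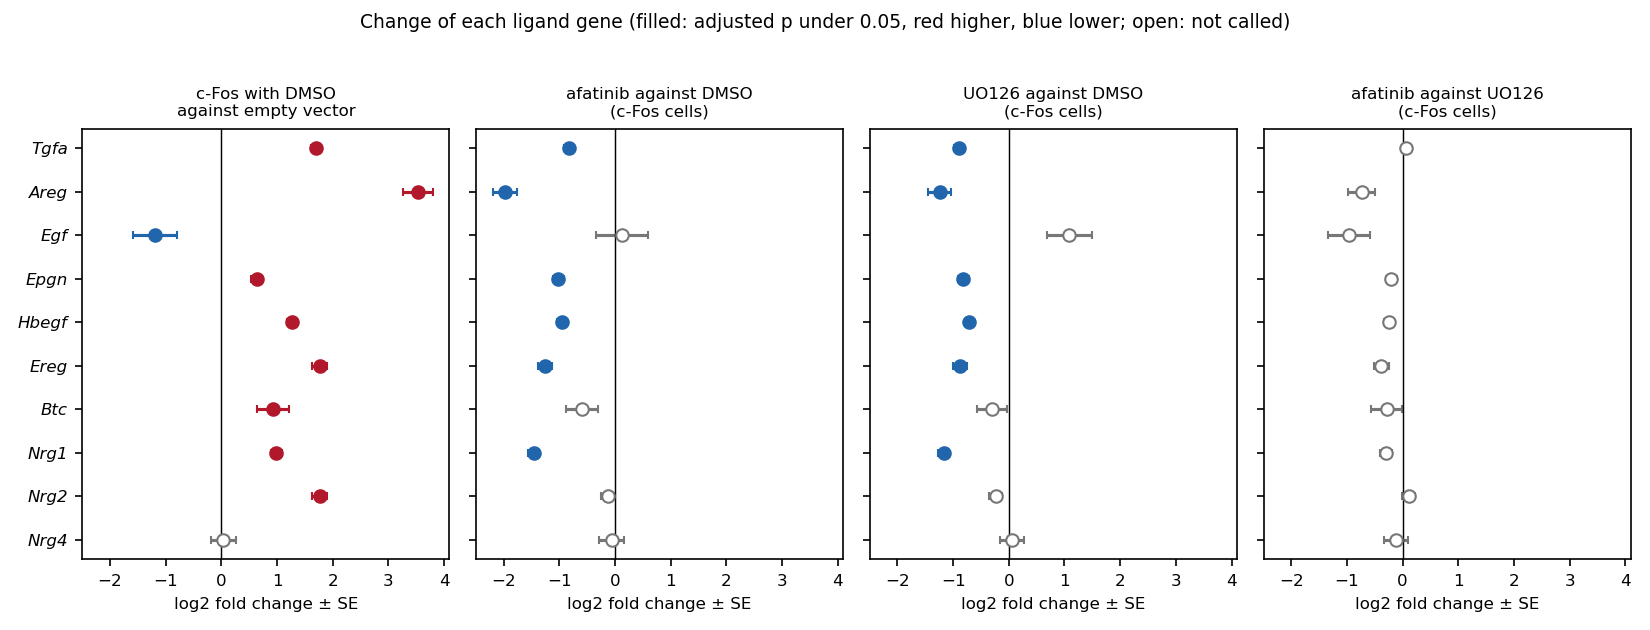
Log2 fold change ± SE (horizontal axis) of each ligand gene (rows) in 4 comparisons, a panel each; filled points were called (red higher, blue lower) and open points were not. The panel against the empty vector holds 8 red and 1 blue point, the afatinib and UO126 panels against DMSO hold 6 blue points each, and the panel of afatinib against UO126 holds none.

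The 2 inhibitors were not told apart by any ligand gene under the call rule, at doses and targets that differ. With afatinib against UO126, 0 of the 10 were called (edgeR), against 14.3% of all tested genes (7.14% higher and 7.14% lower). The DESeq2 Wald test called 0 of the 9 for which it gave an adjusted p, Egf having none. In edgeR, the 5 genes with the smallest adjusted p ran from 0.063 to 0.11. All 5 were lower with afatinib: Areg at -0.73 ± 0.25 (adjusted p = 0.063), Hbegf at -0.24 ± 0.082 (adjusted p = 0.064), Nrg1 at -0.29 ± 0.10 (adjusted p = 0.074), Ereg at -0.38 ± 0.14 (adjusted p = 0.081) and Egf at -0.96 ± 0.38 (adjusted p = 0.11). With no low-count filter Areg (adjusted p = 0.0040), Ereg (0.037), Nrg1 (0.039) and Hbegf (0.046) were called lower. Areg was also called without empty-vector replicate 2 (0.045) or UO126 replicate 2 (0.039), Ereg without UO126 replicate 2 (0.0097), and Hbegf (0.036) and Nrg1 (0.048) without UO126 replicate 1. Tgfa was at 0.07 ± 0.081 (adjusted p = 0.64), with overlapping libraries.

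Against the empty vector, the inhibited c-Fos cells fell into 3 patterns of ligand genes. Tgfa, Areg, Ereg, Hbegf and Nrg2 were called higher with either inhibitor, against 21.7% of all tested genes called higher with afatinib and 18.3% with UO126. In either direction 8 members were called with afatinib and 5 with UO126, against 45.1% and 37.7% of all tested genes. Areg had 1.83 and 2.20 CPM with afatinib and 3.62 and 3.14 CPM with UO126, against 0.411 and 0.947 CPM in the empty vector (1.55 ± 0.34 and 2.29 ± 0.30, adjusted p = 0.0020 and 4.8e-05). Without empty-vector replicate 1 these changes were 1.07 with afatinib and 1.79 with UO126, and without replicate 2 they were 2.21 and 2.95. Nrg2, not called against DMSO with either inhibitor, was at 1.63 ± 0.14 with afatinib and 1.53 ± 0.14 with UO126 (adjusted p = 8.4e-07 and 2.1e-06).

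Tgfa was at 0.86 ± 0.085 with afatinib and 0.80 ± 0.085 with UO126 against the empty vector (adjusted p = 2.3e-06 and 6.0e-06). Ereg was at 0.51 ± 0.15 with afatinib and 0.89 ± 0.14 with UO126 (adjusted p = 0.014 and 2.6e-04), and the call with afatinib was lost on leaving out empty-vector replicate 1 (adjusted p = 0.051), replicate 2 (0.076) or afatinib replicate 1 (0.071). Hbegf was at 0.32 ± 0.084 with afatinib and 0.56 ± 0.083 with UO126 (adjusted p = 0.0078 and 1.3e-04), the call with afatinib ending without empty-vector replicate 1 (0.064) or afatinib replicate 2 (0.059). These 3 genes thus lay between the DMSO and the empty-vector levels.

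Epgn and Nrg1 lay at or under their empty-vector level. Nrg1 had 15.7 and 17.8 CPM with afatinib, against 24.8 and 21.8 CPM in the empty vector, and was called lower (-0.48 ± 0.10, adjusted p = 0.0019), among 23.4% of all tested genes. Epgn had 18.6 and 16.0 CPM with afatinib, against 22.5 and 22.5 CPM in the empty vector, and was called lower (-0.38 ± 0.10, adjusted p = 0.0073), though not without afatinib replicate 2 (0.098). Egf was also called lower with afatinib (-1.07 ± 0.37, adjusted p = 0.033), a call that ended without either empty-vector replicate (0.10 and 0.11), without afatinib replicate 2 (0.26) and with the DESeq2 Wald test (0.18). With UO126 none of the 10 was called lower, against 19.4% of all tested genes, and Nrg1 and Epgn were both at -0.18 ± 0.10 (adjusted p = 0.17). Epgn was called lower with UO126 without UO126 replicate 1 (adjusted p = 0.045). Btc and Nrg4 differed from the empty vector in neither inhibitor group by the call rule, with Btc called higher with UO126 when UO126 replicate 2 was left out (0.018) or no low-count filter was used (0.047).

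The order of the 4 groups was therefore not the same for all ligand genes. For Tgfa, Hbegf, Areg and Ereg it was DMSO, then the 2 inhibitor groups, which did not differ by the call rule, then the empty vector. For Epgn and Nrg1 it was DMSO, then the empty vector, UO126 and afatinib, where neighbours did not differ by the call rule but the ends of that run did. For Nrg2 the 3 c-Fos groups did not differ by the call rule and all stood above the empty vector. For Btc, Egf and Nrg4 no neighbours in the order differed by the call rule, although for Btc and Egf DMSO and the empty vector, the ends of the order, did.

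Counts divided by transcript length allow the ligand genes to be compared with each other. On that scale, CPM per kb, Hbegf was the most abundant in the 3 c-Fos groups, at 16.2 ± 0.44 with afatinib, 19.2 ± 0.71 with UO126 and 31.5 ± 3.1 with DMSO, and stood beside Epgn in the empty vector, at 13.0 ± 0.55 for Hbegf and 13.3 ± 0.0010 for Epgn (SD, n = 2). Egf was the least abundant, at 0.114 ± 0.058 with afatinib, 0.223 ± 0.029 with UO126, 0.105 ± 0.055 with DMSO and 0.245 ± 0.0096 in the empty vector. The 10 genes together summed to 53.5 ± 1.1 CPM per kb with afatinib, 61.0 ± 0.14 with UO126, 107 ± 3.1 with DMSO and 47.1 ± 0.39 in the empty vector. Of that sum Hbegf, Epgn and Nrg1 were the 3 largest parts in every group by their means, at 30.3%, 19.0% and 14.96% with afatinib and 27.7%, 28.2% and 23.6% in the empty vector.

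The make-up of the sum shifted with the groups. Areg made up 3.12% ± 0.47 with afatinib, 4.59% ± 0.45 with UO126, 6.19% ± 0.97 with DMSO and 1.20% ± 0.68 in the empty vector. Nrg2 made up 13.6% ± 2.2 with afatinib, 11.1% ± 1.4 with UO126, 7.45% ± 0.65 with DMSO and 4.94% ± 0.046 in the empty vector. Epgn made up between 19.0% and 19.4% in the 3 c-Fos groups by their means, and 28.2% ± 0.23 in the empty vector. By the group means the share of Areg was thus highest with DMSO and that of Nrg2 with afatinib, in values with no test. The libraries overlapped for the Nrg2 share, at 15.09% and 12.02% with afatinib and 10.06% and 12.05% with UO126. The level of Nrg2 itself was 7.27 ± 1.3 CPM per kb with afatinib and 7.94 ± 0.46 with DMSO, while the sum was 53.5 and 107.

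**Figure D3:**
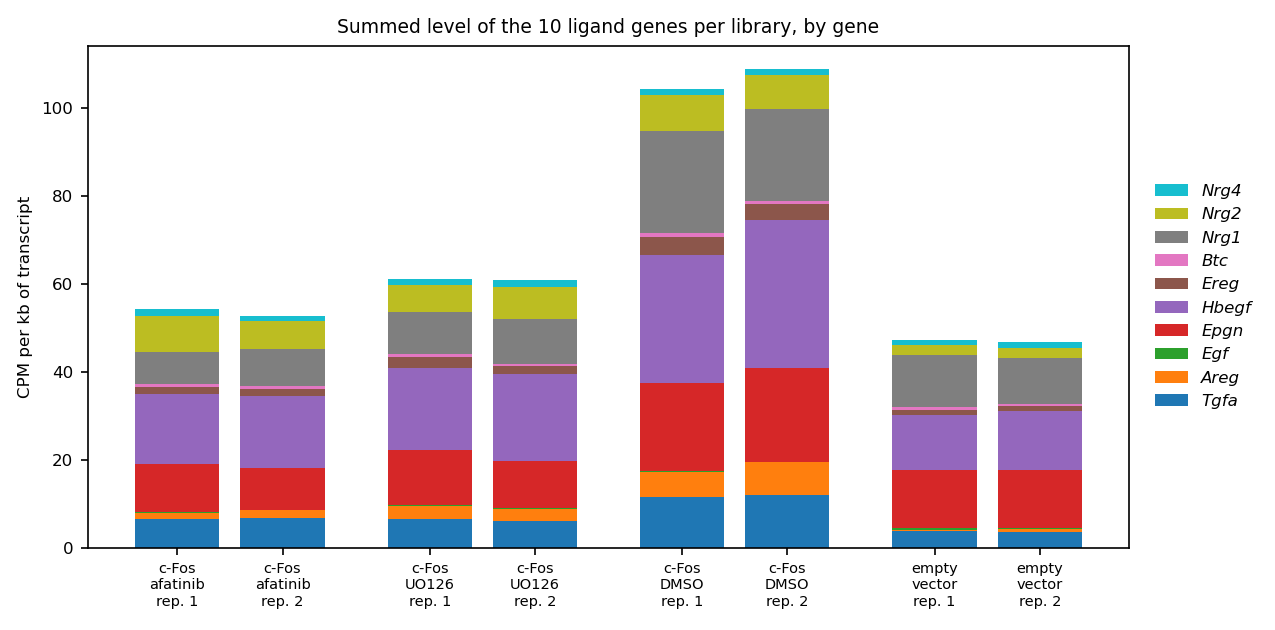
Summed level of the 10 ligand genes in each library in CPM per kb of transcript (vertical axis, linear from 0), stacked by gene, for c-Fos cells with afatinib, UO126 or DMSO and for empty-vector cells. The DMSO libraries reach 104 and 109, and all other libraries lie between 46.8 and 61.1.

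The genes whose course over the 8 libraries was most like that of a ligand gene were found for the 6 members with a mean of at least 5 CPM, among 9870 other genes, by the root mean square difference of centred log2(CPM + 1) values. Nearest to Tgfa were Cav1 (0.09), Evpl (0.11) and Cldn1 (0.13), which encode caveolin-1, the desmosomal linker envoplakin and claudin-1. Ereg was nearest to Emp1 (0.11), Cldn1 (0.13) and Lrp8 (0.17), and Hbegf to Ifi211 (0.09), Rhoc (0.09) and Lad1 (0.11). Nrg1 was nearest to Asap1 (0.07), Il4ra (0.09) and Glis2 (0.13). Epgn was nearest to Riox2 (0.09), Tnfaip8 (0.09) and Csk (0.09), and Nrg2 to Isg20 (0.11), Cystm1 (0.11) and Anxa6 (0.11). Cldn1 was among the nearest 3 of both Tgfa and Ereg, and the ligands' own spread on this scale was 0.38 for Epgn to 0.67 for Nrg2.

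Of 4 receptor genes 3 were tested. With c-Fos and DMSO none rose and Egfr fell relative to the empty vector, all 3 rose with afatinib and 1 rose with UO126 against DMSO. Over all tested genes 20.7% were called lower in the first comparison, and 21.2% and 13.9% were called higher with afatinib and with UO126. Egfr was at 101 ± 8.4 CPM with afatinib, 87.7 ± 2.2 with UO126, 74.8 ± 9.6 with DMSO and 145 ± 13 in the empty vector, lower with c-Fos and DMSO than with the empty vector (-0.95 ± 0.094, adjusted p = 5.4e-06) and higher with afatinib than with DMSO (0.44 ± 0.095, adjusted p = 0.0026). With UO126 it was at 0.23 ± 0.095 against DMSO (adjusted p = 0.092). Erbb2, the partner with no ligand of its own, was called higher with afatinib (0.27 ± 0.079, adjusted p = 0.013), a call that ended without DMSO replicate 2 or either afatinib replicate. Erbb3, the neuregulin receptor, was at 92.8 ± 1.1 CPM with afatinib, 64.0 ± 7.5 with UO126, 42.8 ± 1.4 with DMSO and 41.3 ± 5.8 in the empty vector. It was higher than with DMSO under afatinib (1.12 ± 0.099, adjusted p = 2.2e-06) and UO126 (0.58 ± 0.10, adjusted p = 9.2e-04), and higher with afatinib than with UO126 (0.54 ± 0.095, adjusted p = 0.0029). Erbb4 had no more than 1 count per library, and Nrg3, the remaining neuregulin gene, held 0.

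Of 12 genes of ligand shedding, 5 were called higher and 0 lower with c-Fos and DMSO against the empty vector, with a median of 0.08, against 21.5% higher and 20.7% lower of all tested genes. The protease genes Adam8 (2.20 ± 0.17, adjusted p = 3.1e-07) and Adam12 (1.74 ± 0.081, adjusted p = 1.9e-09) rose, as did Timp3, an inhibitor of ADAM17 (0.69 ± 0.067, adjusted p = 2.4e-06). Adam17, the main sheddase of most EGFR ligands, was at -0.12 ± 0.077 and was not called. With afatinib 3 of the 12 were called higher and 3 lower against DMSO, which is near the 21.2% and 21.5% of all tested genes. Frmd8, which stabilises the iRhom and ADAM17 complex, rose (0.61 ± 0.079, adjusted p = 3.9e-05), as did Adam9 (0.51 ± 0.084, adjusted p = 3.3e-04), while Adam12 fell (-0.50 ± 0.075, adjusted p = 1.4e-04). With UO126 4 were called higher and 2 lower, among them Adam19 at 1.45 ± 0.44 (adjusted p = 0.024), Timp3 at 0.51 ± 0.067 (adjusted p = 1.0e-04) and Adam12 at -0.49 ± 0.075 (adjusted p = 3.3e-04). Over all tested genes 13.9% were called higher and 14.7% lower with UO126. Adam19 had 15.5 and 18.5 counts with UO126, against 6.5 and 3.5 counts with DMSO. Its call ended without either DMSO replicate or UO126 replicate 2. With UO126 the Frmd8 call ended in 8, the Adam9 call in 5 and the Rhbdf1 call in 1 of the alternative settings, and with afatinib the Adam8 call ended in 4.

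Of 8 receptor-proximal adaptor and effector genes, 3 were called higher and 1 lower with c-Fos and DMSO, 4 and 1 with afatinib against DMSO, and 1 and 2 with UO126 against DMSO, with changes of at most 0.44 in size among those called. Over all tested genes 42.2%, 42.7% and 28.6% were called in either direction in these 3 comparisons. With UO126 the Grb2 call ended in 12 and the Plcg1 call in 10 of the 14 alternative settings. With afatinib the Ptpn11 call ended in 6, the Sos2 call in 3 and the Sos1 call in 2. With c-Fos and DMSO the Shc1 call ended in 6, the Plcg1 call in 3 and the Ptpn11 call in 1. Shc1, an adaptor of the receptors, fell with afatinib (-0.44 ± 0.068, adjusted p = 1.7e-04) and UO126 (-0.38 ± 0.068, adjusted p = 9.7e-04). Of 4 brakes on the receptors, Lrig1 (-1.37 ± 0.077, adjusted p = 1.3e-08) and the ubiquitin ligase gene Cblb (-0.78 ± 0.089, adjusted p = 1.3e-05) were lower with c-Fos and DMSO than with the empty vector. The brakes thus held 2 lower and 0 higher calls there, against 20.7% and 21.5% of all tested genes. Against DMSO, Lrig1 was at -0.06 ± 0.079 with afatinib and -0.16 ± 0.079 with UO126 and was not called. The only brake called against DMSO was Cblb, higher with UO126 (0.33, edgeR adjusted p = 0.014), where 13.9% of all tested genes were higher. That Cblb call ended in 3 of the 14 alternative settings. All 5 ERK output genes were called lower with each inhibitor against DMSO, with a median of -2.73 for afatinib and -1.98 for UO126. Over all tested genes 21.5% and 14.7% were called lower. With c-Fos and DMSO, 4 of the 5 were called higher than with the empty vector and 0 lower, against 21.5% and 20.7%. Of these calls, that of Spry4 ended in 3 and that of Dusp6, at 0.28, in 2 of the alternative settings. Spry4 had 13 and 18 counts with c-Fos and DMSO, against 4 and 6 counts in the empty vector. With each inhibitor, 1 of the 5 ERK output genes was called higher than with the empty vector and 3 lower. The shares of all tested genes were 21.7% higher and 23.4% lower with afatinib, and 18.3% and 19.4% with UO126. Against the empty vector the Spry2 call with UO126 ended in 1 of the alternative settings. The higher gene was Etv4, at 0.87 with afatinib and 0.75 with UO126 (edgeR adjusted p = 2.3e-05 and 1.1e-04). Etv5 was at -4.67 ± 0.16 with afatinib and -4.33 ± 0.15 with UO126 against DMSO (adjusted p = 3.9e-10 and 2.7e-09).

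**Figure D4:**
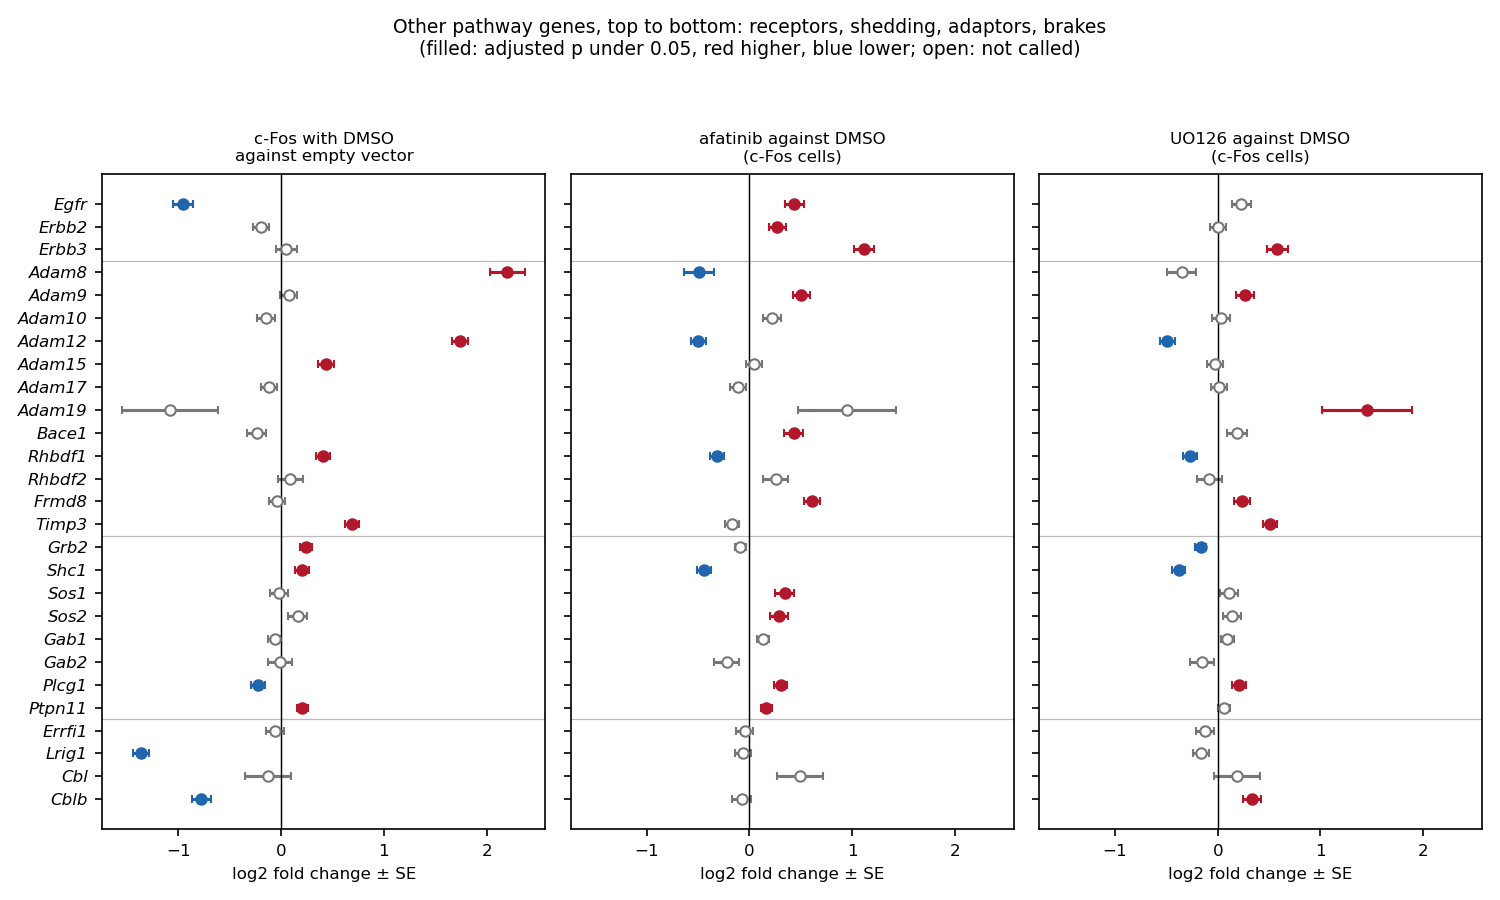
Log2 fold change ± SE (horizontal axis) of the tested receptor, shedding, adaptor and brake genes (rows, classes parted by grey lines) for DMSO-treated c-Fos cells against empty-vector cells and for afatinib and UO126 against DMSO; filled points were called (red higher, blue lower). Erbb3 is at 1.12 with afatinib, and Adam8 and Adam12 are at 2.20 and 1.74 with c-Fos and DMSO.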

How the data were processed

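RNA-seq libraries of ASZ001 cells were aligned with TopHat to mm9 and counted with HOMER, per the series' design text and the submitters' processing notes, which also list DESeq2; versions are not given in the sources used here. The deposited values are estimated counts per gene symbol in steps of 0.5, not normalized by the authors. Of 24909 rows, 26 whose symbols had become dates were left out. Counts were rounded to whole numbers and tested with edgeR 4.0.16 (R 4.3.3) by robust quasi-likelihood with TMM scaling on genes passing filterByExpr (minimum count 10, total 15), in 1 fit of all 8 libraries by group, which leaves 4 residual degrees of freedom. SE is the size of the log2 fold change divided by the square root of F. CPM is the deposited count over the TMM-scaled library total, and CPM per kb also divides by the file's gene length. The code was checked on simulated counts. Alternatives were DESeq2 1.42.0 (size factors, Wald test), no filter, unrounded counts, a replicate block, only the 4 libraries compared, and each library left out. Members and gene lists were chosen with earlier results of these data known. All 10 members are named, with up to 3 called genes per pathway list and comparison by the size of their change; Adam17, Lrig1 with the inhibitors, further genes whose calls ended and single marker genes were named after their values were seen. Total counts reached at most 23126048 per library. Low counts limit the precision for the members Areg, Btc, Egf and Nrg4 and for Adam19 and Spry4. The 2 libraries of each group differed by more than sampling noise.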

Additional observations from a re-analysis of the deposited data

How the results depend on the processing

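Of the 60 member changes (10 genes in 6 comparisons), the 6 settings that keep all compared libraries gave 347 values with the same direction and call, 8 that gained a call, 3 that lost one and 1 that changed sign: Nrg4 with afatinib against the empty vector, at -0.02, was 0.0018 with only the 4 libraries compared. For Egf with afatinib against UO126 the DESeq2 Wald test gave no adjusted p, so that value is missing. Leaving out each library in turn, where a lone library is assumed to vary like the other groups, gave 442 the same, 8 gains, 14 losses and 16 sign changes.

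With c-Fos and DMSO against the empty vector, 1 member was called lower, against 0 with the DESeq2 Wald test and 0 to 1 with a library left out. With UO126 against DMSO, 0 were called higher, against 1 (Egf) with no low-count filter. With afatinib against UO126, 0 were called, against 4, all lower, with no low-count filter and 0 to 2, all lower, with a library left out. With afatinib against the empty vector, 8 were called, and 5 to 8 with a library left out, of which 3 to 5 were higher (5 with all libraries) and 1 to 3 lower (3 with all libraries). With UO126 against the empty vector, 0 were called lower, and 0 to 1 with a library left out. The cause of these changes was not tested.

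Sign changes on leaving out a library were all in changes not called. Nrg4 ranged from -0.078 to 0.16 with DMSO against the empty vector, -0.28 to 0.14 with afatinib against DMSO, -0.11 to 0.21 with UO126 against DMSO, -0.33 to 0.088 with afatinib against UO126, -0.24 to 0.18 with afatinib against the empty vector and -0.067 to 0.24 with UO126 against the empty vector. Egf ranged from -0.44 to 0.66 with afatinib against DMSO and -0.21 to 0.011 with UO126 against the empty vector. Nrg2 ranged from -0.32 to 0.044 with afatinib against DMSO and -0.087 to 0.28 with afatinib against UO126. Btc ranged from -0.58 to 0.095 with afatinib against UO126.

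The replicate block called 9 members with DMSO against the empty vector, 6 with afatinib and 6 with UO126 against DMSO, 0 with afatinib against UO126, and 8 with afatinib and 5 with UO126 against the empty vector, the same counts as without it. Same-numbered libraries deviated from their group means with correlations over genes of -0.361 (afatinib and UO126) to 0.175 (DMSO and empty vector). With 2 libraries per group, these correlations can neither show nor exclude that the numbers pair the samples. Over all genes, the calls fell to 3614 with DMSO against the empty vector, 3536 with afatinib against DMSO and 1839 with UO126 against DMSO without DMSO replicate 2, against 5433, 5497 and 3681 with all libraries. For afatinib against UO126 they fell to 780 and 695 without afatinib replicate 1 and 2 and to 952 with only the 4 libraries compared, against 1839.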
